A study of Homo sapiens with 6 samples.

Results

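The phagocyte NADPH oxidase was followed through 5 of its subunit genes, CYBB, CYBA, NCF1, NCF4 and RAC2, in RNA sequencing of U937 cells. The members were taken by symbol from the 60612 Ensembl gene rows of the deposited count table, and each symbol matched 1 row. U937, labelled acute myeloid leukemia and wild type, is an established human myeloid line derived from a histiocytic lymphoma. The B2 group received 1 µM of a compound known only by that code for 36 h, and the DMSO group received the vehicle for the same 36 h. Both groups were without serum during exposure, and each has 3 libraries numbered 1 to 3. No label ties the libraries to separate cultures, and the p-values therefore reflect library spread alone, which may be technical. The series title names S100A9 as the target, and the single stated comparison is B2 against DMSO.

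The oxidase is a membrane enzyme of neutrophils, monocytes and macrophages that passes electrons from NADPH to oxygen and yields superoxide, which helps kill engulfed microbes. CYBB encodes gp91phox, the catalytic subunit, which forms the membrane cytochrome b558 with p22phox, the product of CYBA. NCF1 encodes the organizer p47phox and NCF4 the phosphoinositide-binding p40phox, which wait in the cytosol until the cell is activated. RAC2 encodes the small GTPase that joins the assembled complex in haematopoietic cells. Loss of CYBB, CYBA, NCF1 or NCF4 in people causes chronic granulomatous disease, and in neutrophils the S100A8 and S100A9 proteins are known to bind the oxidase and deliver arachidonic acid to it.

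Gene positions are on GRCh38 from GENCODE 29, which may not be the annotation the authors used. CYBB (ENSG00000165168) lies on the plus strand at chrX:37780011-37813461 and CYBA (ENSG00000051523) on the minus strand at chr16:88643283-88651152. NCF1 (ENSG00000158517) lies on the plus strand at chr7:74773962-74789315. NCF4 (ENSG00000100365, plus strand, chr22:36860988-36878015) and RAC2 (ENSG00000128340, minus strand, chr22:37225261-37244448) share a chromosome arm, with 347 kb between them. No member's exons overlapped another gene on the same strand. Exons of NCF4 share 27 bases with the antisense gene NCF4-AS1, and reads of that stretch cannot be assigned without the strand setting, which is not given in the sources used here.

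Promoters of CYBB, CYBA and NCF1 are shown because sequences were available for these members only. These genes also had the widest ranges over the libraries. RefSeq sequences on GRCh38.p14 held 3 of the 5 members, from 250 bases before to 50 bases after the start. The stretches are chrX:37779809-37780108 on the plus strand for CYBB, chr16:88651004-88651303 on the minus strand for CYBA and chr7:74773761-74774060 on the plus strand for NCF1. They are written 5′ to 3′ on the gene's strand. Capitals mark matches, on either strand, to the core GAGGAA bound by the myeloid factor PU.1, to the CCAAT box and to the GC box GGGCGG.
CYBB: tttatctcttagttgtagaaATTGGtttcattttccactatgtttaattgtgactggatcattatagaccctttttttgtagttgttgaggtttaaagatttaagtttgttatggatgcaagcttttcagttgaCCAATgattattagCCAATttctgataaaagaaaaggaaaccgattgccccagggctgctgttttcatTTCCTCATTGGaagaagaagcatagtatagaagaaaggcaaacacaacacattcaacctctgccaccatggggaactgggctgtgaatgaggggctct
CYBA: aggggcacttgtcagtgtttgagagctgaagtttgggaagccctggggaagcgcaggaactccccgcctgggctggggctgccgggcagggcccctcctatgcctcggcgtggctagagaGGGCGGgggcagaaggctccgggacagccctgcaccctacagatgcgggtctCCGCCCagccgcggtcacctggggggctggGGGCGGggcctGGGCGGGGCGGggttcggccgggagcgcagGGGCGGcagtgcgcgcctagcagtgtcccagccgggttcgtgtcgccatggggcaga
NCF1: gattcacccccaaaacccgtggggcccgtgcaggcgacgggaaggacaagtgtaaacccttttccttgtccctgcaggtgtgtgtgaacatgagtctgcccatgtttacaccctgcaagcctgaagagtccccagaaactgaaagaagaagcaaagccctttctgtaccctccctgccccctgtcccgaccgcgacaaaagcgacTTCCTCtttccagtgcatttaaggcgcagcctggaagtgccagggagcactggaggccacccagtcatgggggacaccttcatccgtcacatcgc

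CYBB held 1 PU.1 core, starting 48 bases before the start and directly followed by 1 of its 4 CCAAT boxes, and no GC box. NCF1 held 1 PU.1 core, starting 45 bases before the start, with no CCAAT box and no GC box. CYBA held 6 GC boxes, of which a pair overlaps, and neither of the other motifs. No promoter of the 3 matched TATAAA or the interferon-type pattern TTCNNNGAA. These motifs are common: of 35116 promoters of the same length, 27.9% held GAGGAA, 34.6% CCAAT, 45.0% GGGCGG, 11.5% TATAAA and 7.66% TTCNNNGAA. A match describes letters and not a bound site. The GC content was 37.7% for the CYBB promoter, 72.7% for CYBA and 57.3% for NCF1, against a median of 58.7% over all promoters.

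NCF1 has a pair of near-identical unprocessed pseudogenes on the same chromosome, NCF1B (ENSG00000182487, chr7:73220624-73235945, plus strand) and NCF1C (ENSG00000165178, chr7:75156639-75172044, minus strand). The stretch below is shown because it holds the dinucleotide repeat by which the functional gene is usually told from its copies. It is read from the GENCODE 29 transcripts numbered 201, with the GT repeat in capitals.
NCF1: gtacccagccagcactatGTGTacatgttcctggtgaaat
NCF1B: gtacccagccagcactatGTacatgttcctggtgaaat
NCF1C: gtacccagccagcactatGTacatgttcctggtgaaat

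Of 3831 distinct 50-base stretches in annotated NCF1 transcripts, 42.1% also occur in NCF1B or NCF1C transcripts. The shared part was 67.8% for NCF1B and 77.4% for NCF1C. Counting could therefore split reads among the 3 rows, and values of NCF1 are uncertain to that extent.

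Library totals ran from 61150740 to 78431054 counts, and the 5 members had between 1787 and 41832 counts in any library, so counting error is small beside the spread between libraries. Levels below are CPM, counts per 1000000 of the library total scaled with TMM factors. The myeloid identity of the cells showed in CD4, LYZ, AZU1, ELANE and CTSG, at 324 to 2364 CPM, while the T cell genes CD3D, CD3E and CD3G, the B cell gene MS4A1 and the erythroid gene HBB had 0 counts in every library. MPO, a myeloid enzyme that turns the oxidase's hydrogen peroxide into hypochlorous acid, had at most 122 counts. Epithelial markers were low but all positive with B2 (7 of 7 tested, 0 called, median log2 fold change 1.19), with summed levels of 28.7 to 35.7 CPM in the B2 libraries and 2.99 to 25.5 CPM in the DMSO libraries, and their part in the B2 values was not tested. All 5 members were among the 17224 genes that passed the filter on low counts.

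CYBB, the catalytic subunit, had 45.6, 87.4 and 383 CPM in B2 replicates 1 to 3, against 35.9, 171 and 357 CPM in DMSO replicates 1 to 3. The groups overlapped, and within each group the library numbered 3 was the highest and the library numbered 1 the lowest. Its partner CYBA, which stabilizes gp91phox in the membrane, had 206, 175 and 450 CPM in the B2 libraries, against 389, 161 and 321 CPM in the DMSO libraries. CYBA was lowest in the libraries numbered 2, and DMSO replicate 1 was above DMSO replicate 3.

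Among the cytosolic subunits, the organizer NCF1 had 26.8, 30.6 and 335 CPM in the B2 libraries, against 38.9, 23.0 and 300.3 CPM in the DMSO libraries. Both libraries numbered 3 stood far above the other 4, with a lowest value in number 3 that was 7.71 times the highest of the rest. NCF4, whose product binds phosphatidylinositol 3-phosphate on phagosomes, had 207, 178 and 308 CPM in the B2 libraries, against 212, 162 and 301 CPM in the DMSO libraries. The GTPase gene RAC2 had 364, 340.4 and 500.1 CPM in the B2 libraries, against 469, 305 and 539 CPM in the DMSO libraries. For NCF4 and RAC2 the whole range over 6 libraries was 1.90-fold and 1.76-fold, compared with 10.7-fold for CYBB, 14.6-fold for NCF1 and 2.79-fold for CYBA.

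**Figure D1:**
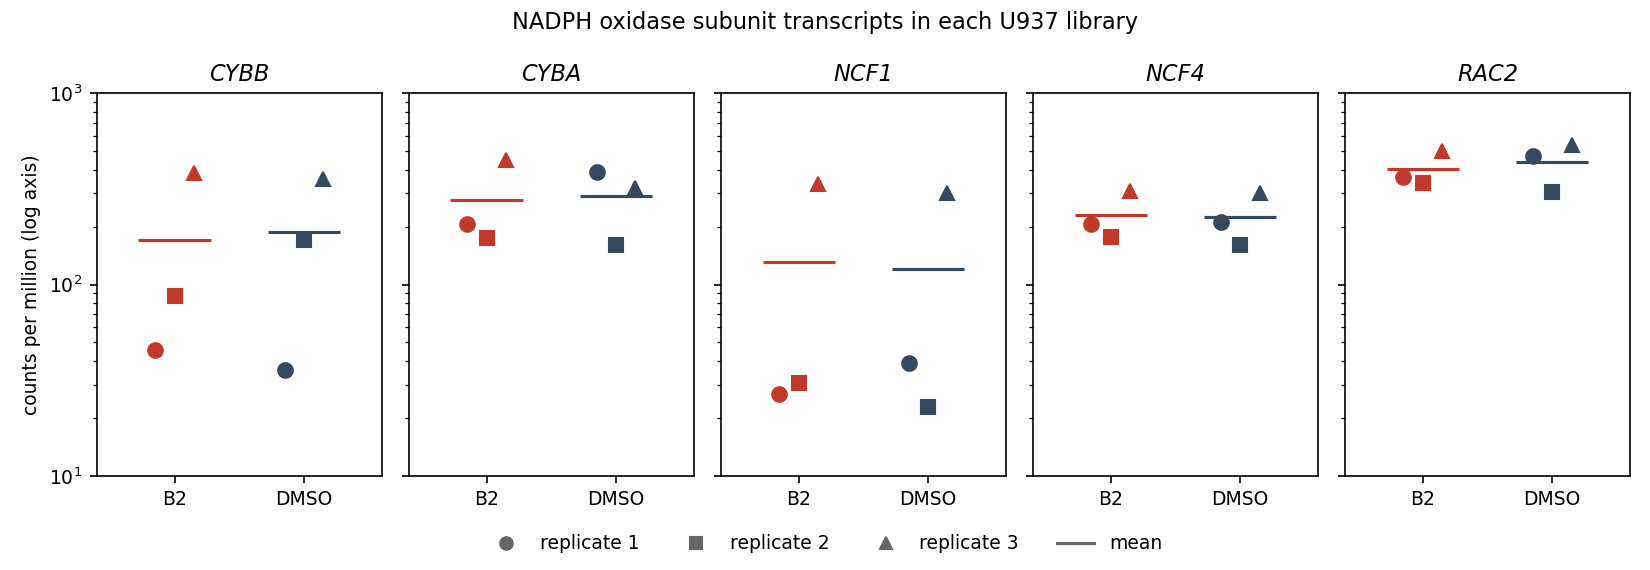
CPM (log axis) of each subunit gene in every library, B2 left of DMSO, with the marker shape giving the replicate number and the bar the mean of 3 libraries. B2 and DMSO overlap for all 5 genes, and the libraries numbered 3 stand apart most for NCF1 (335 and 300.3 CPM against at most 38.9 CPM) and CYBB.

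B2 and DMSO did not differ for any subunit gene beyond the spread between libraries. In edgeR's quasi-likelihood test the share of all tested genes called was 0%, or 0 of 17224, and the members called were 0 of 5 (every member's adjusted p = 1.0). Before adjustment, 85 genes in all had p below 0.05. The members' unadjusted edgeR p-values ran from 0.694 for RAC2 to 0.924 for NCF1. None of the 5 had B2 and DMSO groups that did not overlap, which 3.56% of tested genes had.

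The estimates were close to 0, but for CYBB and NCF1 the intervals were wide. CYBB averaged 172 ± 184 CPM with B2 and 188 ± 161 CPM with DMSO (SD, n = 3 each). Its log2 fold change was -0.13 (SE 0.91) with a 95% interval from -2.21 to 1.95. NCF1 averaged 131 ± 177 CPM with B2 and 121 ± 156 CPM with DMSO, a log2 fold change of 0.12 (SE 1.17, interval -2.58 to 2.81). CYBA averaged 277 ± 151 CPM with B2 and 290.5 ± 117 CPM with DMSO, which gave a log2 fold change of -0.07 (SE 0.45, interval -1.11 to 0.97). NCF4 averaged 231 ± 68.0 CPM with B2 and 225 ± 70.4 CPM with DMSO, a log2 fold change of 0.04 (SE 0.33, interval -0.72 to 0.80). RAC2 averaged 401 ± 86.3 CPM with B2 and 438 ± 120 CPM with DMSO, a log2 fold change of -0.13 (SE 0.31, interval -0.83 to 0.58). The members' median log2 fold change was -0.07, compared with -0.08 over all tested genes.

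Single libraries set the sign of these estimates. Without DMSO replicate 3 the log2 fold change was 0.74 for CYBB, 0.01 for CYBA, 2.08 for NCF1, 0.31 for NCF4 and 0.05 for RAC2, and without B2 replicate 3 it was -1.50, -0.61, -2.08, -0.23 and -0.32 in the same order of genes. CYBB was also positive without B2 replicate 1 (0.36) and B2 replicate 2 (0.23), as was CYBA (0.09 and 0.17, and 0.22 without DMSO replicate 1). NCF1 was negative without DMSO replicate 1 (-0.28) and DMSO replicate 2 (-0.36), and NCF4 without DMSO replicate 2 (-0.17). RAC2 was otherwise negative, between -0.35 without DMSO replicate 2 and -0.02 without B2 replicate 2. None of these fits called a member.

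Within replicate numbers the B2 over DMSO ratio differed in direction from number to number. The ratio of CPM was 1.27 in number 1, 0.512 in number 2 and 1.07 in number 3 for CYBB. For CYBA it was 0.530, 1.09 and 1.40, and for NCF1 0.688, 1.33 and 1.12. For NCF4 the ratio stayed between 0.974 and 1.10, and for RAC2 between 0.775 and 1.11. No member had 1 direction in all 3 pairs.

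With the replicate number as a block, the share of genes called was again 0% and the intervals narrowed. The blocked log2 fold changes were -0.17 for CYBB (interval -0.80 to 0.46), -0.10 for CYBA (-0.74 to 0.54), 0.01 for NCF1 (-0.57 to 0.59), 0.05 for NCF4 (-0.46 to 0.55) and -0.11 for RAC2 (-0.63 to 0.42). Blocked intervals of all 5 genes lay within a 2-fold change either way. They rest on the pairing of equal numbers, which the labels do not state.

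**Figure D2:**
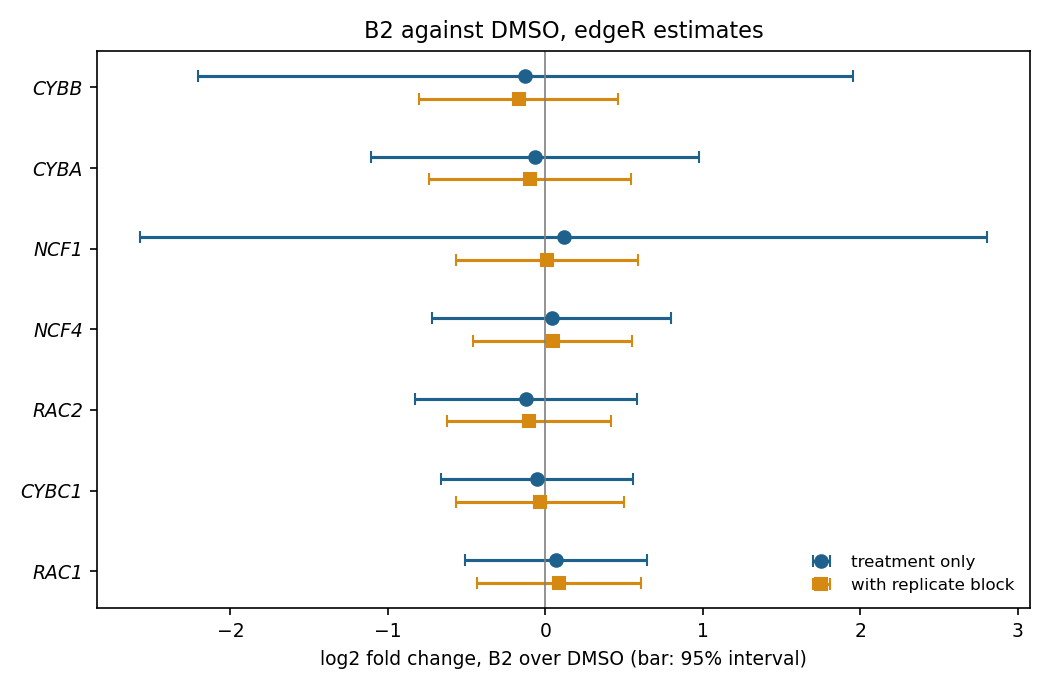
Log2 fold change of B2 over DMSO with its 95% interval for the 5 subunits and 2 partner genes, from the edgeR fit with treatment only (circles) and with the replicate block (squares). Every interval contains 0, and the widest without the block are those of NCF1 (-2.58 to 2.81) and CYBB (-2.21 to 1.95).

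CYBB and NCF1 differed between replicate numbers, whichever treatment the library had. In all, edgeR called 461 of 17224 genes (2.68%) for number beside treatment, threshold 0.05, and 369 (2.14%) were called and had their highest mean in number 3. Of the 5 members 2 were called, both with the highest mean in number 3. That the libraries numbered 3 stand apart in macrophage genes was known before the members were chosen, so these calls describe the members and are not independent support. In bulk RNA, a larger number of cells with a transcript and more transcript per cell cannot be told apart.

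NCF1 averaged 318 CPM in the libraries numbered 3, against 32.9 CPM in number 1 and 26.8 CPM in number 2 (edgeR adjusted p = 5.7e-05). The log2 difference was 3.27 (SE 0.35) for number 3 over number 1 and 3.57 (SE 0.35) for number 3 over number 2, while numbers 2 and 1 differed by -0.30 (SE 0.32, interval -1.01 to 0.41). NCF1 was thus high in number 3, with no difference detected between the other two. CYBB averaged 370 CPM in number 3, against 40.7 CPM in number 1 and 129 CPM in number 2 (edgeR adjusted p = 0.0011). Its log2 difference was 3.18 (SE 0.38) for number 3 over number 1, 1.55 (SE 0.36) for number 3 over number 2 and 1.63 (SE 0.36) for number 2 over number 1. CYBB thus had a different level in each number at the main scaling. With each library's length and GC trend removed, the CYBB means of numbers 1 and 2 were closer, at 52.6 and 94.4 CPM. Both calls held without any 1 library, with adjusted p-values up to 0.0316 for CYBB and 0.00195 for NCF1.

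The other members were not called between numbers. CYBA averaged 385 CPM in number 3, against 298 CPM in number 1 and 168 CPM in number 2 (edgeR adjusted p = 0.154, log2 difference of number 3 over number 1 of 0.40 with an SE of 0.36). NCF4 averaged 304 CPM in number 3, against 209 and 170 CPM in numbers 1 and 2 (edgeR adjusted p = 0.192). RAC2 averaged 519 CPM in number 3, against 416 and 323 CPM (edgeR adjusted p = 0.325). Each had its highest mean in number 3, and 4 of the 5 members, all except CYBA, had both libraries numbered 3 above the other 4, as did 12.3% of tested genes. Without B2 replicate 1 the test called CYBA (0.0068), NCF4 (0.0265) and RAC2 (0.0389) at these adjusted p-values, with 4124 genes called in all, and without DMSO replicate 1 it called CYBA (0.0464).

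**Figure D3:**
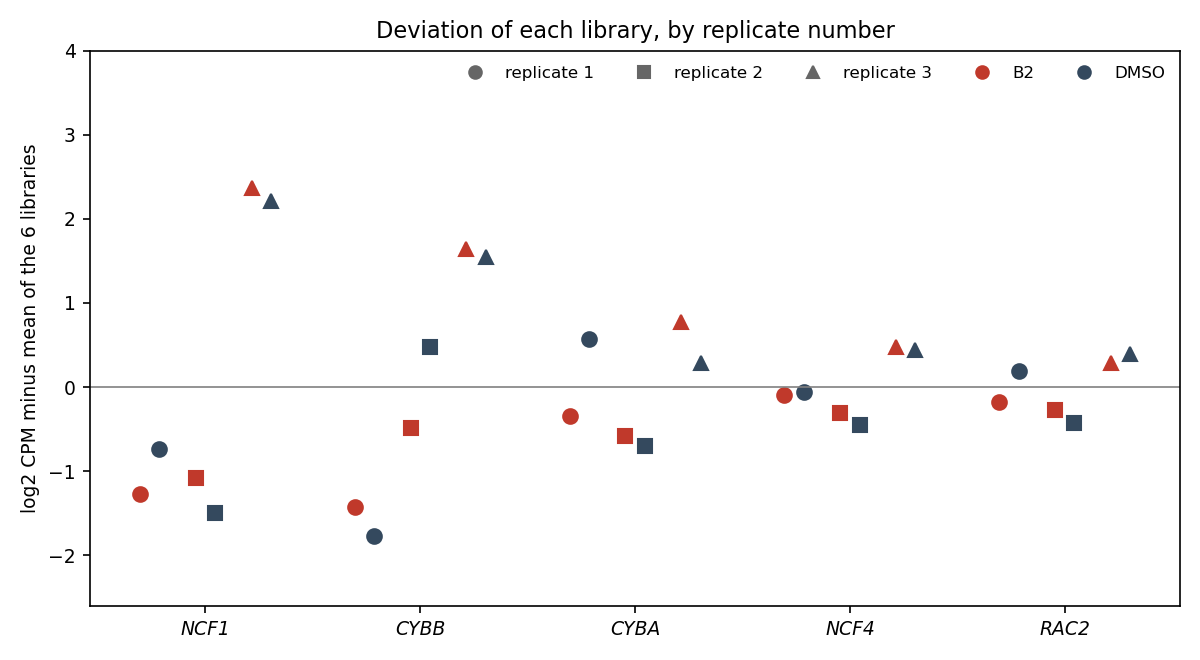
Log2 CPM of each library minus the mean of the 6 libraries, for the 5 subunit genes, with marker shape for replicate number and colour for B2 or DMSO. The triangles of number 3 lie highest for NCF1 and CYBB, CYBB also separates number 1 from number 2, and NCF4 and RAC2 stay within a 1.90-fold range.

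Some of the spread between numbers 1 and 2 moved with a trend of counts with GC content. The Spearman correlation of a library's deviation with transcript GC content, across 17015 genes, was 0.20 in B2 replicate 1 and -0.27 in B2 replicate 2, against 0.48 in DMSO replicate 1 and -0.55 in DMSO replicate 2. It was 0.04 in B2 replicate 3 and 0.09 in DMSO replicate 3. CYBB has the lowest GC content of the members (40.9%), NCF1 the highest (64.0%) and CYBA 61.3%. With the length and GC trend of each library removed, an alternative added after the data were seen, CYBB stood at 51.5, 78.8 and 381 CPM in the B2 libraries, against 53.7, 110.1 and 366 CPM in the DMSO libraries. CYBA then stood at 207, 197 and 419 CPM in the B2 libraries, against 319, 201 and 299 CPM in the DMSO libraries. The gap between numbers 1 and 2 was smaller for both genes, and the height of number 3 for CYBB and NCF1 (304 and 275 CPM against at most 34.5 CPM elsewhere) was kept.

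Macrophage markers moved with the same libraries. The summed level of 13 monocyte and macrophage markers ran from 86.5 to 1627 CPM in the B2 libraries and from 78.4 to 1823 CPM in the DMSO libraries, with the high values in number 3. Of the 13 markers 9 were tested, and 9 were called between numbers, all highest in number 3. Among all tested genes the share called and highest in number 3 was 2.14%. That macrophage genes set number 3 apart was already known from these data, so the marker calls are a description and not independent support. CD14 averaged 115 CPM in number 3, against 1.03 and 0.488 CPM in numbers 1 and 2. MRC1, the mannose receptor, had 0 counts in every library, and MSR1 had at most 4. S100A9 followed the same order, with 670 and 603 CPM in B2 and DMSO replicates 3 and 17.6 to 37.1 CPM in the other 4 libraries. The part of the cells' macrophage state in the NCF1 and CYBB values was not tested.

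Levels of different subunits were compared per length, as CPM per kilobase of annotated exon. That length is the union of all annotated exons, such as 3357 bases for CYBA and 3462 bases for NCF1. Transcripts present in the cells may be shorter, so the order and proportions below hold for this measure only. Some reads of NCF1 may also lie in its pseudogene rows. RAC2 was the highest of the 5 in every library, at 134 to 197 CPM per kb in the B2 libraries and 121 to 213 CPM per kb in the DMSO libraries, and NCF4 followed at 101 to 175 and 92.0 to 171 CPM per kb. CYBA came next in every library, at 52.2 to 134 CPM per kb with B2 and 48.0 to 116 CPM per kb with DMSO. CYBB ran from 10.3 to 86.5 CPM per kb with B2 and from 8.11 to 80.7 CPM per kb with DMSO. NCF1 ran from 7.74 to 96.8 CPM per kb with B2 and from 6.65 to 86.8 CPM per kb with DMSO. RAC2 and NCF4, and likewise CYBB and NCF1, had ranges over libraries that overlapped within each group.

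The proportions among the subunit transcripts shifted with the libraries numbered 3. NCF1 made up 2.27, 2.79 and 14.03% of the summed level per length in B2 replicates 1 to 3, against 2.55, 2.17 and 13.4% in DMSO replicates 1 to 3. CYBB made up 3.02, 6.24 and 12.5% in the B2 libraries, against 1.84, 12.6 and 12.5% in the DMSO libraries. The ratio of CYBB to CYBA, the partners of cytochrome b558, was 0.168, 0.379 and 0.645 per length in the B2 libraries, against 0.0700, 0.804 and 0.844 in the DMSO libraries. By this measure, the catalytic subunit's transcript was below that of its partner in all 6 libraries.

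**Figure D4:**
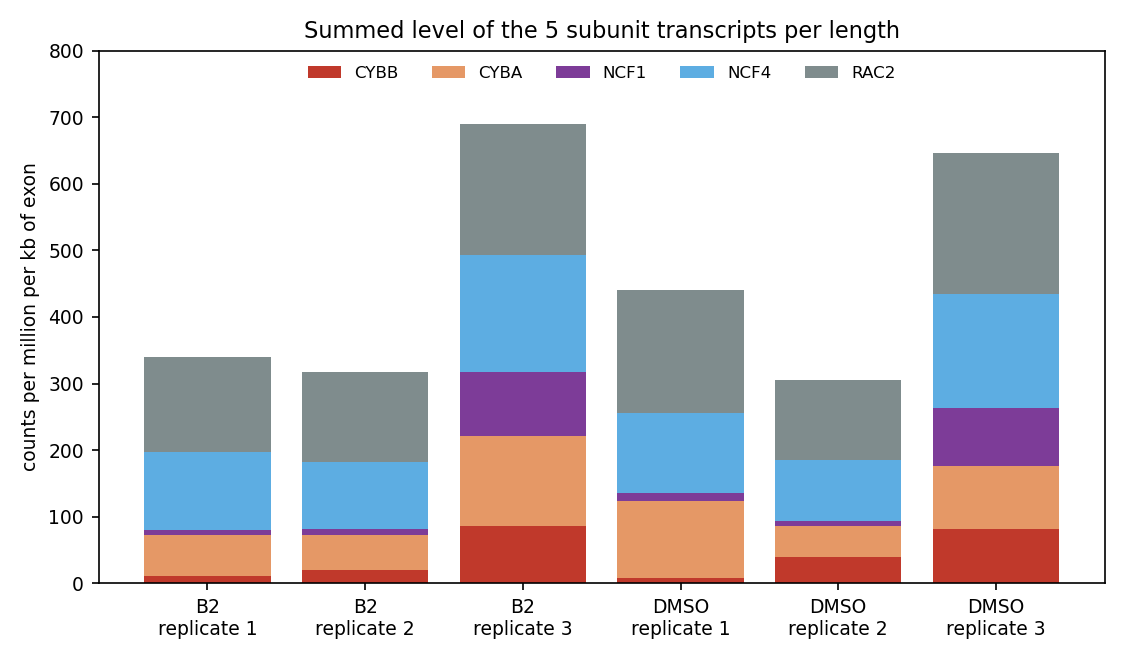
Stacked CPM per kilobase of exon of the 5 subunit transcripts in each library, B2 left of DMSO. The sums are 340.5, 317 and 690 in B2 replicates 1 to 3 and 441, 306 and 647 in DMSO replicates 1 to 3, and the NCF1 and CYBB segments are largest in the libraries numbered 3, with CYBB also large in DMSO replicate 2.

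The NCF1 pseudogene rows moved with NCF1. NCF1B had 21.3, 23.2 and 247 CPM in the B2 libraries, against 28.7, 17.4 and 235 CPM in the DMSO libraries. NCF1C had 19.6, 20.4 and 285 CPM in the B2 libraries, against 23.5, 16.1 and 238 CPM in the DMSO libraries. NCF1 held 38.6 to 41.2% of the summed counts of the 3 rows in the B2 libraries and 38.8 to 42.7% in the DMSO libraries, so the division among the rows was nearly constant. Summed into 1 row, the 3 had a log2 fold change of 0.13 (SE 1.20) between B2 and DMSO and differed between numbers with an edgeR adjusted p of 4.0e-05.

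Of 12 partners and regulators of the oxidase, 11 were tested and 0 were called between B2 and DMSO (5 positive, 6 negative, median log2 fold change -0.05, range -0.29 to 0.23). CYBC1, a chaperone that cytochrome b558 needs, had 102 to 153 CPM in all 6 libraries. RAC1, the ubiquitous relative of RAC2, had 155 to 226 CPM. HVCN1, the proton channel that balances the oxidase's charge, had at most 16 counts in a library and was not tested. Between numbers NCF1B and NCF1C were called, both highest in number 3. VAV1, PREX1, PRKCB, PRKCD, RAP1A and ARHGDIB, which act on RAC proteins or phosphorylate or bind the subunits, were not called. PRKCD and PREX1 passed the threshold only without B2 replicate 1. That fit leaves 1 library of number 1 and called far more genes than the main fit.

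Other NADPH oxidase genes except NOXA1 were below 1 CPM, where 3 counts corresponded to 0.0386 to 0.0537 CPM. Of 10 genes in that list 3 were tested and 0 called in either comparison. NOX3 and DUOXA2 had 0 counts in all libraries, NOX1 at most 14 and NOX4 at most 6. DUOX1 had 0.447, 0.151 and 0.429 CPM in the B2 libraries, against 0.537, 0.566 and 0.850 CPM in the DMSO libraries, so its groups did not overlap, but it did not pass the test (log2 fold change -0.93, SE 0.59, edgeR adjusted p = 1.0). NOXA1, an activator subunit that serves NOX1, had 4.42 to 9.11 CPM with B2 and 3.54 to 9.97 CPM with DMSO. CYBB was the single catalytic oxidase subunit above 1 CPM.

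Genes that feed the oxidase or remove its products were not called. Of 10 NADPH supply genes 0 were called between B2 and DMSO (3 positive, 7 negative, median -0.12) and 0 between numbers. TKT, PGD and IDH2, enzymes of the pentose phosphate pathway and of isocitrate oxidation, had the highest levels. Of 16 genes that remove reactive oxygen species 15 were tested, with 0 called in either comparison (median -0.06 between B2 and DMSO). GPX1, a glutathione peroxidase, had 239, 197 and 652 CPM in the B2 libraries, against 429, 166 and 505 CPM in the DMSO libraries. GPX1 missed the threshold between numbers (edgeR adjusted p = 0.0570) and passed it without B2 replicate 1 (0.0018) or DMSO replicate 1 (0.0112), with RLE factors (0.0277), DESeq2 (7.7e-04), counts divided by 4 (2.9e-04) and the length and GC trend removed (0.0312).

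Of 17 regulators of CYBB transcription 0 were called between B2 and DMSO (9 positive, 8 negative, median 0.01). SPI1, the gene of PU.1, had 240.1, 219 and 426 CPM in the B2 libraries, against 388, 198 and 419 CPM in the DMSO libraries, with a log2 fold change of -0.19 (SE 0.39). Like CYBA, SPI1 was lowest in number 2, and it was not called (edgeR adjusted p = 0.168). SPI1 passed the threshold only without B2 replicate 1 or without DMSO replicate 1, fits that leave 1 library of number 1. IRF8, an interferon regulatory factor of monocytes that acts on CYBB, had 123 to 172 CPM with B2 and 128 to 176 CPM with DMSO. ETS1, named after its values were seen, was called between numbers. ETS1 was highest in number 2 (96.4 CPM), against 33.6 CPM in number 1 and 28.1 CPM in number 3, and its call (0.0426) was lost without any 1 of the DMSO libraries, with adjusted p-values of 0.129, 0.611 and 0.188 without DMSO replicates 1, 2 and 3. The ETS1 call was also lost with library totals (0.117) and with no filter on low counts (0.0535).

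Several receptors that trigger the oxidase were called between numbers. Of 17 genes 16 were tested, and 0 were called between B2 and DMSO (6 positive, 10 negative, median -0.12). Between numbers 7 were called, all highest in number 3, compared with 2.14% of all tested genes called and highest there. The list was chosen with earlier results of these data known, so these calls describe the receptors and are not independent support. ITGB2, the common chain of the leukocyte integrins, averaged 4769 CPM in number 3, against 2442 and 1700.2 CPM in numbers 1 and 2. Its call (edgeR adjusted p = 0.0396) was lost without B2 replicate 2 (0.0531), B2 replicate 3 (0.249), DMSO replicate 2 (0.258) or DMSO replicate 3 (0.417), with no filter on low counts (0.131) and with the length and GC trend removed (0.0570). Its partner ITGAM and the receptor of platelet-activating factor PTAFR were not called (adjusted p = 0.0654 and 0.0633). They passed without B2 replicate 1 (0.0091 and 0.0114), ITGAM also without DMSO replicate 1 (0.0464) and PTAFR without B2 replicate 2 (0.0483). Both also passed with RLE factors (0.0490 for ITGAM and 0.0443 for PTAFR), DESeq2 (0.0011 and 0.0011), counts divided by 4 (0.0055 and 0.0034) and the trend removed (0.0256 and 0.0187), or 6 of 12 alternatives each. The formyl peptide receptor FPR1 and the beta-glucan receptor CLEC7A are named after their values were seen. FPR1 averaged 11.4 CPM in number 3, against 1.27 and 1.07 CPM, and CLEC7A 12.3 CPM, against 0.410 and 0.563 CPM (edgeR adjusted p = 1.8e-04 and 5.7e-05).

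Genes most like each member over the 6 libraries were ranked by Pearson correlation of log2 CPM among 12874 other genes with a mean of at least 1 CPM. These points share their libraries, depth and GC trend, so the correlations describe a pattern. CYBB was most like CTSO, a cysteine protease gene (r = 0.998), the interferon-induced IFIT3 (0.996) and PRDM1 (0.996). NCF1 was most like its pseudogene NCF1B (r = 0.9997), JAML (0.999) and NCF1C (0.998). CYBA was most like LGALS1, the gene of galectin-1 (r = 0.998), JOSD2 (0.996) and RETN (0.996). NCF4 was most like TNFRSF14 (r = 0.997), DNAJB2 (0.995) and NINJ1 (0.995), and RAC2 most like PLOD1, ARRDC2 and GLMP (0.999 each). By Spearman's rho the order is mostly ties, with 33 to 348 genes at rho = 1 for a member. No member was among the 3 genes most like another. Between members, r was highest for NCF1 with NCF4 (0.956) and lowest for CYBB with CYBA (0.253), over 6 libraries.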

How the data were processed

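RNA from 6 U937 libraries (3 B2, 3 DMSO) was analysed from 1 deposited table of expected counts (estimated counts per Ensembl gene, whole numbers, not normalized). HISAT2 2.0.4 did the alignment according to the submitters' processing notes. Details of counting (tool, build, gene models, strandedness) were not given in the sources used here. No rounding was needed. The value 4 occurred 6465 times, against 3144 times for 3 and 2022 times for 5, so small counts are less exact than their size implies. Symbols came from a gene name table (60401 identifiers) and GENCODE 29 (187 more).

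Genes were kept by filterByExpr (minimum count 10, minimum total 15), which left 17224, and libraries were scaled by TMM (factors 0.862 to 1.07). B2 against DMSO and the replicate number (2 terms tested together beside treatment) were tested with edgeR 4.0.16 under R 4.3.3 (glmQLFit, glmQLFTest), Benjamini-Hochberg adjusted over all tested genes, threshold 0.05. Every adjusted p is from edgeR unless another tool is named. Tests were checked on simulated counts. Exon length is the union of GENCODE 29 exons. Alternatives were RLE factors, library totals, no filter, DESeq2 1.42.0, limma-voom (limma 3.58.1), the replicate block, counts divided by 4, libraries numbered 3 left out, each library left out, NCF1 summed with its pseudogenes and, added after the data were seen, offsets for length and GC content.

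Same-numbered libraries deviated together (r across genes 0.210, 0.402 and 0.496 for numbers 1, 2 and 3), each above 0.1. Equal numbers were therefore treated as pairs in the fits with the replicate block. The main test of B2 against DMSO held treatment only and used no pairing. The pairing rests on the data alone, because no label explains the numbers.

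The members and lists were chosen with earlier results of these data known. Named genes were the 5 members, 12 partners, the 3 most abundant tested genes of each further list, SPI1, IRF8, the 3 genes most like each member, S100A8, S100A9, ACTB and GAPDH. The text prints a part of them, and some results are not reported here.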

Additional observations from a re-analysis of the deposited data

How the results depend on the processing

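No member was called between B2 and DMSO under any alternative that gave an adjusted p; DESeq2 gave none for NCF1. The count of genes called there was 3 with DESeq2, 48 without both libraries numbered 3 but with the replicate block, and 0 to 1 without 1 library. The replicate block gave 0 and changed no call. The log2 fold change of B2 over DMSO changed sign for CYBA with library totals (0.035) and with the length and GC trend removed (0.0066). It did so for NCF1 with limma-voom (-0.023) and without both libraries numbered 3 (-0.11, or -0.065 when blocked), and for CYBC1 with library totals (0.040). RAC1 was at -0.013 without both, and at -0.023 with the trend removed (-0.0094 with the block). Without 1 library the ranges were -1.50 to 0.74 for CYBB, -0.61 to 0.22 for CYBA, -2.08 to 2.08 for NCF1, -0.23 to 0.31 for NCF4, -0.35 to 0.052 for RAC2, -0.25 to 0.048 for CYBC1, -0.029 to 0.21 for RAC1 and -0.55 to 0.0079 for SPI1. Genes called between numbers were 956 with RLE factors, 266 with library totals, 1671 with DESeq2, 2379 with counts divided by 4, 828 with the trend removed and 388 to 4124 without 1 library, against 461. CYBB passed under 12 of 12 alternatives and NCF1 under 13 of 13, and CYBA passed with DESeq2 (0.0366) and with counts divided by 4 (0.0158). The cause of these shifts was not tested. DESeq2 gave no adjusted p for NOX5 between numbers. Fits of the number without 1 library have 1 residual degree of freedom before genes are pooled. Of these fits, that without B2 replicate 1 called the most genes, far above the main fit, so its calls of single genes say little.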
